A study of Mus musculus with 27 samples.

Results

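The expression of 9 microglia genes was measured by RNA-sequencing in the frontal cortex (FC) and striatum (STR) of wild-type mice and of mice that lack an enhancer at the Igf2 locus. The genes are Cx3cr1, P2ry12, Csf1r, Trem2, Tmem119, Aif1, C1qa, C1qb and C1qc, and were taken by symbol from the 52636 gene identifiers of the count tables. All 9 were found, and all 9 passed the filter on low counts in every comparison. The mice were adults of about 2.5 months on the 129S1 background. Igf2enh-/- mice were homozygous for loss of a 4.9 kb fragment between H19 and Igf2 (chr7:149796331-149801250 in mm9), with a single loxP site left after excision of the selection cassette by an Hprt-CRE transgene. The deletion was made in embryonic stem cells and is not restricted to a cell type. Wild-type mice carried the intact fragment. There were 6 FC libraries of each genotype, 3 from females and 3 from males. For STR, the 7 wild-type libraries came from 3 females and 4 males, and the 8 Igf2enh-/- libraries from 4 of each sex. The sample labels thus give 13 wild-type and 14 Igf2enh-/- libraries, whereas the design text of the series gives 14 and 13, and the labels of the samples were followed. The labels did not tie an FC library to a STR library of the same mouse, so libraries were treated as separate mice, and p-values measure the spread between these libraries.

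Microglia are the resident macrophages of the brain parenchyma. They arise from yolk sac precursors, depend on signalling through the colony-stimulating factor receptor CSF1R, survey the tissue with motile processes, and prune synapses in part through the classical complement cascade, which C1q opens. In mouse brain the listed genes are carried mainly by microglia, and several are shared with the macrophages of the meninges and vessels. Tissue RNA mixes all cells of a dissected piece, so fewer microglia and less RNA per microglial cell cannot be told apart in any value below.

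Positions are those of the RefSeq annotation of GRCm38.p6. C1qa, C1qc and C1qb sit side by side on the minus strand of chromosome 4, at chr4:136895916-136898844, chr4:136889801-136892936 and chr4:136880126-136886200. Aif1 and Trem2 are both on chromosome 17, at chr17:35170986-35176083 and chr17:48346401-48352276. Cx3cr1 is at chr9:120048683-120068296 and Tmem119 at chr5:113793729-113800396. P2ry12, at chr3:59216271-59262985 on the minus strand, lies inside Med12l, a gene on the opposite strand, and the exons of the pair did not overlap. Which strand was counted was not found in the sources used here, so Med12l values are given beside those of P2ry12.

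Promoter windows of 6 of the 9 genes were taken from RefSeq. The myeloid transcription factor PU.1, encoded by Spi1, binds purine-rich sites built around GGAA. The core alone was in 93.4% of the 32851 promoter windows of 250 bases, on either strand, and in all 6 of the members' windows. The string GGAAG was in 64.1% of all windows and in 4 of the 6. The longer string AGGAAGT, which holds the core and was chosen after the sequences had been seen, was in 7.69% of all windows and in 3 of the 6, those of P2ry12, C1qb and C1qc. One base more, GAGGAAGT, left 2.44% of all windows and 1 of the 6, that of C1qc. These 3 windows are shown because one member of the receptor group and a pair of C1q chains share the string. Capitals mark AGGAAGT or its reverse complement ACTTCCT, each written 5' to 3' on the gene's own strand, here the minus strand of GRCm38.p6. The P2ry12 window is chr3:59262986-59263235, the C1qb window chr4:136886201-136886450 and the C1qc window chr4:136892915-136893164.
P2ry12: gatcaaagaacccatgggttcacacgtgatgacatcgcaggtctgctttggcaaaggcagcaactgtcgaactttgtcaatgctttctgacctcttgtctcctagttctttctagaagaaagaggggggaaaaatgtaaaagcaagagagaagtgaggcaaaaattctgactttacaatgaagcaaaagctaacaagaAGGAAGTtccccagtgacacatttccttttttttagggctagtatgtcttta
C1qb: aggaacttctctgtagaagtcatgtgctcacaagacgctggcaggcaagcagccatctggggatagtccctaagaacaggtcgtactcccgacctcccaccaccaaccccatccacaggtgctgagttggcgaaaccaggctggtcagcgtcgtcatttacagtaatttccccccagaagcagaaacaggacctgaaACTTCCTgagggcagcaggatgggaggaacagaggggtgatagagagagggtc
C1qc: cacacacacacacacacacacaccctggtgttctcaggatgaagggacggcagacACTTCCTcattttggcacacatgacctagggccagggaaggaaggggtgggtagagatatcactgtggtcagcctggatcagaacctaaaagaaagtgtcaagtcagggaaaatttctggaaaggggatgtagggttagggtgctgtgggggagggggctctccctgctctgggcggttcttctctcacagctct
The string began at base -52 before the start of P2ry12, at -53 before that of C1qb and at -195 before that of C1qc, and it was not in the windows of Cx3cr1, Aif1 and Trem2. The C1qc and Aif1 windows lie before a start inside the gene span given above, so they overlap that span. A match describes the letters only and says nothing on whether a factor was bound in these mice.

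Libraries held 23686945 to 33926904 counts, and the members were read with 87 to 3442 counts per library, lowest for Aif1. Counts of Xist and Ddx3y matched the labelled sex in 27 of 27 libraries. The deleted fragment holds no gene, so no row checks the genotype directly, and Igf2 ranged from 51.9 to 107 counts scaled to library size (CPM) in wild-type FC and from 88.3 to 173 in Igf2enh-/- FC. Striatal library 15 stood apart in choroid plexus genes, with 3312 CPM summed over 7 genes against a median of 34.9 in its group. Striatal library 20 was lowest in medium spiny neuron genes, with 3788 CPM summed over 9 genes against a group median of 8138. It was also highest of the STR libraries in cortical projection neuron genes, with 1346 CPM summed over 8 genes. That sum varied widely, from 64.8 to 1346 CPM in wild-type and 189 to 994 in Igf2enh-/- STR, against 2507 to 2796 in FC. The part of this spread in the region differences below was not tested. FC library 1, of the Igf2enh-/- group, had 1001 CPM summed over 8 oligodendrocyte genes against a group median of 1773, and the highest summed level of its group in pericyte and smooth muscle genes (115 CPM, median 72.4) and in meningeal genes (118, median 77.7). Without any one of these 3 libraries the same numbers of members passed the test in every comparison.

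All CPM values below are scaled by the trimmed mean of M-values (TMM) over the 27 libraries. The plot of CPM by library shows the 9 genes in the 4 groups.

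**Figure D1:**
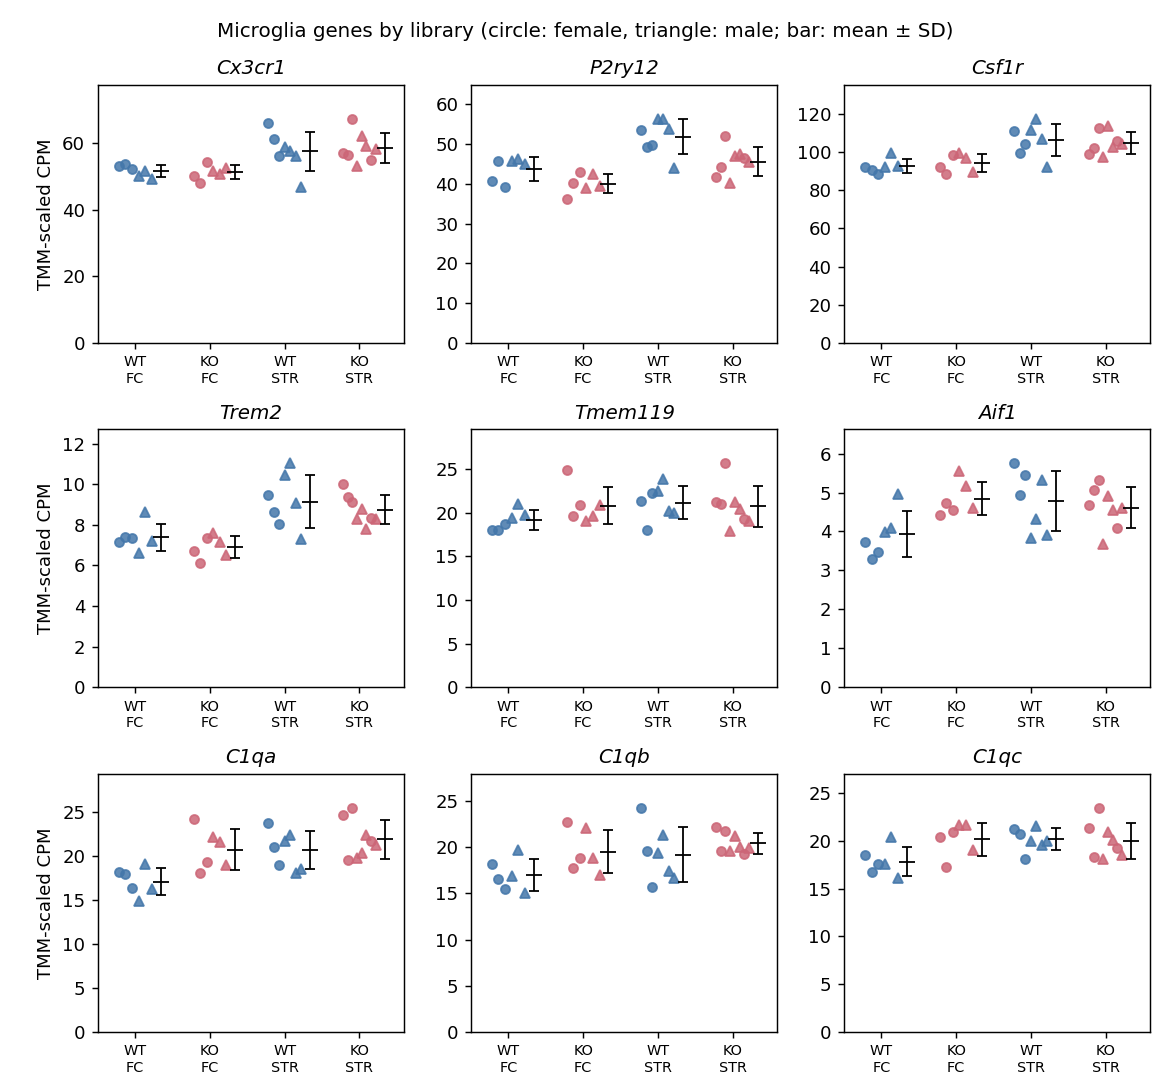
TMM-scaled CPM of each microglia gene (y axes, starting at 0) in wild-type (blue) and Igf2enh-/- (red) libraries of frontal cortex (FC) and striatum (STR). Circles are females and triangles males, bars give mean ± SD, and Trem2 in Igf2enh-/- mice is the only gene whose STR libraries (7.82 to 10.0) all lie above the FC libraries of the same genotype (6.13 to 7.58).

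To compare members with each other, CPM was divided by the length of the merged exons of each gene. In wild-type FC the order of levels per kilobase ran from P2ry12 (18.4 ± 1.28 CPM per kb; SD, n = 6) through Csf1r (17.7 ± 0.720), C1qa (16.5 ± 1.49), C1qb (15.6 ± 1.60), Cx3cr1 (13.8 ± 0.461), C1qc (9.23 ± 0.783), Tmem119 (8.27 ± 0.496) and Aif1 (2.56 ± 0.388) to Trem2 (1.50 ± 0.134). Neighbours from P2ry12 to C1qb differed by less than the larger SD of each pair, whereas the drop from Cx3cr1 to C1qc and that from Tmem119 to Aif1 were several times the SD. The order was the same in wild-type STR. In Igf2enh-/- mice C1qa was highest, at 20.0 ± 2.23 CPM per kb in FC and 21.1 ± 2.12 in STR. P2ry12 ranked 4 there in FC (16.8 ± 1.02) and 3 in STR (19.2 ± 1.54). The order in wild-type FC also depended on the length used. Over the longest protein-coding transcript, a choice made after seeing the data, C1qc rose to 14.8 CPM per kb, beside the other C1q chains. Trem2 rose to 6.80, above Aif1 at 4.49, and Csf1r (19.7) stood above P2ry12 (18.7). The merged exons of Trem2 include a long non-coding transcript with a retained intron, which lowers its value per kilobase.

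The first question was whether microglia genes differ between FC and STR. In wild-type mice all 9 members had higher fitted levels in STR, with log2 fold changes from 0.15 to 0.30 (fold changes of 1.11 to 1.23), and 7 passed edgeR's quasi-likelihood test at an adjusted p under 0.05. Over all 13414 genes tested, 34.5% were higher in STR by the same rule, and the median log2 difference of all genes was 0.01, against 0.19 for the members. In Igf2enh-/- mice 6 of the 9 were above 0 and 4 passed the test, again beside 34.5% of all genes, with a member median of 0.08 against 0.01. The number of members called there is near the share of all genes. No called member differed by more than 0.34 on the log2 scale.

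The surface receptors were higher in STR in both genotypes. Csf1r, the receptor for CSF1 and IL-34 on which microglial survival depends, had the highest CPM of the 9. In wild-type mice it ran from 88.6 to 99.8 CPM (median 92.3) in FC and from 92.5 to 118 (median 107) in STR, and in Igf2enh-/- mice from 88.8 to 99.5 (median 94.6) and from 97.8 to 114 (median 104). STR libraries were higher with some overlap, 5 of 7 wild-type and 6 of 8 Igf2enh-/- STR libraries lying above every FC library of their genotype. The log2 fold change was 0.19 ± 0.0476 (SE; adjusted p = 0.000862) in wild-type and 0.15 ± 0.0462 (adjusted p = 0.0045) in Igf2enh-/- mice.

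Cx3cr1, the receptor for the neuronal chemokine fractalkine, ranged in wild-type mice from 49.2 to 53.7 CPM (median 51.9) in FC and from 46.9 to 65.9 (median 57.5) in STR. The FC libraries were tight, and the STR libraries were spread on both sides of them, with library 26 below every FC library and the other 6 above. In Igf2enh-/- mice it ranged from 48.1 to 54.3 CPM (median 51.2) in FC and from 53.2 to 67.3 (median 57.6) in STR, with 7 of 8 STR libraries above all FC libraries. Log2 fold changes were 0.16 ± 0.0553 (SE; adjusted p = 0.0149) and 0.19 ± 0.0537 (adjusted p = 0.00268).

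P2ry12, the ADP receptor that directs microglial processes towards injured or active cells, ranged in wild-type mice from 39.2 to 46.4 CPM (median 45.3) in FC and from 44.1 to 56.4 (median 53.5) in STR. In Igf2enh-/- mice the ranges were 36.3 to 42.9 CPM (median 39.9) and 40.3 to 52.1 (median 46.0). In each genotype 6 STR libraries lay above every FC library, of 7 in wild-type and 8 in Igf2enh-/- mice. This gave a log2 fold change of 0.24 ± 0.0606 (SE; adjusted p = 0.00101) in wild-type and 0.19 ± 0.059 (adjusted p = 0.00688) in Igf2enh-/- mice. Med12l, the gene around it, had log2 fold changes of -0.04 (adjusted p = 0.55) and 0.00 (adjusted p = 0.97) between the same libraries, with group means of 46.0 to 47.9 CPM.

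Trem2, a receptor for lipids and apolipoproteins that signals through the adaptor TYROBP, showed the widest relative gap of the receptors. It ranged in wild-type mice from 6.63 to 8.63 CPM (median 7.28) in FC and from 7.29 to 11.0 (median 9.06) in STR, and in Igf2enh-/- mice from 6.13 to 7.58 (median 6.93) and from 7.82 to 10.0 (median 8.54). The wild-type groups overlapped, with 4 of 7 STR libraries above every FC library, whereas the Igf2enh-/- groups did not overlap. Log2 fold changes were 0.30 ± 0.0848 (SE; adjusted p = 0.00279) and 0.34 ± 0.0829 (adjusted p = 0.000778). A full separation with STR above FC was found for 20.7% of all genes in Igf2enh-/- mice and for 1 of the 9 members, and for 18.4% of genes and 0 members in wild-type mice.

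Among the other members, some passed the test in wild-type mice and none in Igf2enh-/- mice. C1qa, the A chain of C1q, ranged in wild-type mice from 14.9 to 19.1 CPM (median 17.2) in FC and from 18.0 to 23.8 (median 21.0) in STR (log2 fold change 0.28 ± 0.0792 SE; adjusted p = 0.0035). Its Igf2enh-/- libraries ranged from 18.2 to 24.3 (median 20.5) in FC and from 19.5 to 25.6 (median 21.5) in STR, for a log2 fold change of 0.08 ± 0.076 (adjusted p = 0.38). The wild-type FC libraries were the low group of the 4, and the other 3 groups covered nearly the same range.

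The remaining C1q chains had levels close to that of C1qa. C1qb, the B chain, ranged from 15.1 to 19.7 CPM in wild-type FC, 15.7 to 24.3 in wild-type STR, 17.0 to 22.8 in Igf2enh-/- FC and 19.3 to 22.3 in Igf2enh-/- STR, and its log2 fold changes of 0.18 ± 0.0872 (SE; adjusted p = 0.0752) in wild-type and 0.07 ± 0.0839 (adjusted p = 0.496) in Igf2enh-/- mice did not pass the test. C1qc, the C chain, ranged from 16.1 to 20.4 CPM in wild-type FC and from 18.1 to 21.5 in wild-type STR (log2 fold change 0.18 ± 0.0658 SE; adjusted p = 0.0202), and from 17.3 to 21.6 and 18.1 to 23.5 in Igf2enh-/- mice (-0.01 ± 0.0634; adjusted p = 0.882). All these groups overlapped. The protein is built from equal numbers of the A, B and C chains, and of the summed CPM of the 3 transcripts C1qa held 30.1% to 36.2%, C1qb 29.7% to 35.1% and C1qc 30.3% to 36.1% in the 27 libraries, a share of counts that is not corrected for length.

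Aif1 encodes the calcium-binding protein IBA1, the usual histological marker of microglia, and had the lowest counts of the 9. It ranged in wild-type mice from 3.29 to 4.96 CPM (median 3.87) in FC and from 3.83 to 5.76 (median 4.94) in STR (log2 fold change 0.28 ± 0.108 SE; adjusted p = 0.0243), and in Igf2enh-/- mice from 4.43 to 5.54 (median 4.68) and from 3.69 to 5.31 (median 4.64), with a log2 fold change of -0.07 ± 0.103 (adjusted p = 0.546). Only 3 of 7 wild-type STR libraries were above all wild-type FC libraries. Without any one of libraries 4, 6, 14, 18 and 24 the adjusted p of the wild-type difference lay between 0.053 and 0.0702. Tmem119, a membrane protein that marks microglia among brain macrophages, ranged from 18.0 to 21.0 CPM in wild-type FC and from 18.0 to 23.9 in wild-type STR, and from 19.1 to 24.8 and 18.0 to 25.7 in Igf2enh-/- mice. Its log2 fold changes of 0.15 ± 0.0743 (SE; adjusted p = 0.0831) and -0.01 ± 0.0718 (adjusted p = 0.929) did not pass the test.

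Both region comparisons were fitted with all 27 libraries, and the difference between them was tested as a region by genotype term. For no member did this term pass the test (adjusted p = 1.00 for all 9), nor for any of the 13414 genes (0%), of which 405 had an unadjusted p under 0.05. An unadjusted p under 0.05 was found for 2 of the 9 members, Aif1 and C1qc, beside 3.02% of all genes. DESeq2 also called 0 genes. The fitted terms ran from -0.35 ± 0.15 (SE) for Aif1 through -0.20 ± 0.11 for C1qa, -0.19 ± 0.0914 for C1qc, -0.15 ± 0.103 for Tmem119 and -0.11 ± 0.121 for C1qb to values between -0.06 and 0.04 for the 4 receptors. So the smaller region differences of the C1q chains, Aif1 and Tmem119 in Igf2enh-/- mice were not shown to differ from those in wild-type mice.

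**Figure D2:**
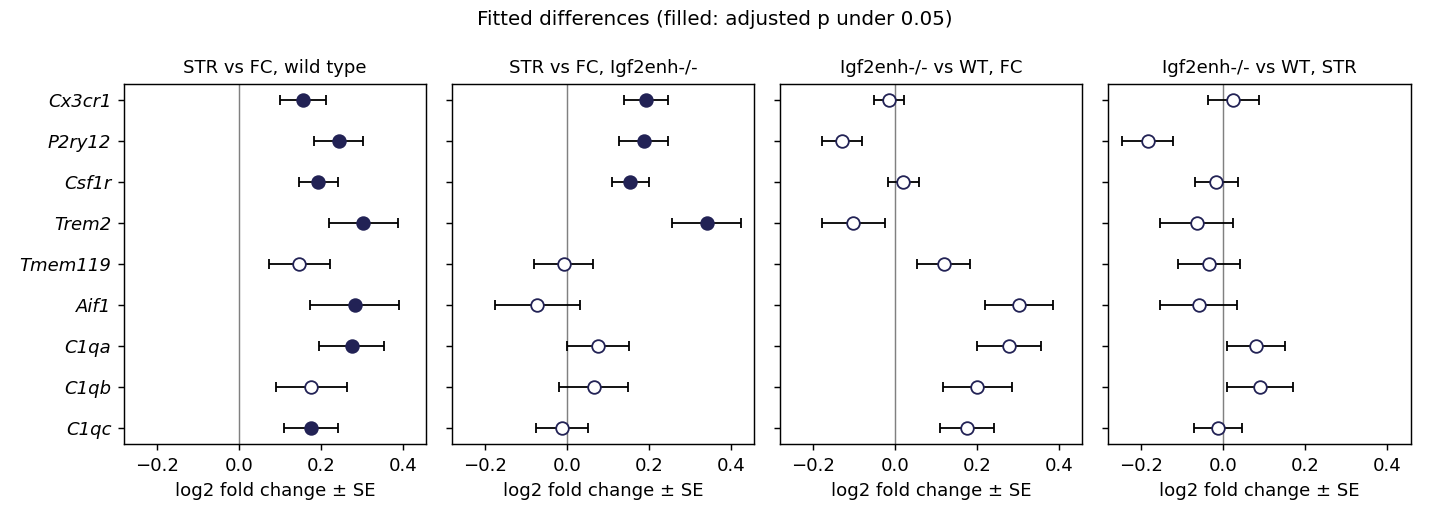
Fitted log2 fold change ± SE (x axes) of each microglia gene in 4 comparisons, with filled points at an adjusted p under 0.05. In wild-type mice all 9 genes lie to the right of 0 in STR against FC and 7 are filled, in Igf2enh-/- mice the 4 receptors are filled, and in neither genotype comparison is a point filled.

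The second question was whether loss of the enhancer changed microglia genes. These comparisons share libraries with the region comparisons, so a low or high group enters both. In FC none of the 9 members passed the test, beside 0.38% of the 13936 genes tested. Of the members, 5 had an unadjusted p under 0.05, as did 13.5% of all genes, 6 had fitted values above 0, and the median log2 fold change was 0.12 against 0.00 over all genes. DESeq2 called 0 members as well. The highest values were those of Aif1 (0.30 ± 0.0833 SE; adjusted p = 0.136) and C1qa (0.28 ± 0.0786; adjusted p = 0.144), followed by C1qb (0.20 ± 0.0841; adjusted p = 0.316) and C1qc (0.18 ± 0.066; adjusted p = 0.264). The whole wild-type range was exceeded by 4 of 6 Igf2enh-/- libraries for C1qa and C1qc and by 2 of 6 for Aif1 and C1qb. With no filter on low counts C1qa was the only member that passed (adjusted p = 0.0118). That setting called 459 of 33060 genes, against 53 of 13936 in the main fit. Library 1 held the highest C1qa, C1qb and Tmem119 of the Igf2enh-/- group, and without it the log2 fold changes were 0.22 for C1qa, 0.15 for C1qb, 0.16 for C1qc and 0.30 for Aif1, with adjusted p from 0.146 to 0.434.

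The other 5 members had fitted values from -0.13 to 0.12 in FC. Tmem119 had a log2 fold change of 0.12 ± 0.0657 (SE; adjusted p = 0.452), Csf1r of 0.02 ± 0.0369 (adjusted p = 0.856) and Cx3cr1 of -0.01 ± 0.0358 (adjusted p = 0.899). Trem2 was at -0.10 ± 0.0761 (adjusted p = 0.59) and P2ry12 at -0.13 ± 0.0494 (adjusted p = 0.27), while Med12l was at 0.01 (adjusted p = 0.933). The 95% intervals of the log2 differences reached from -0.25 for Trem2 to 0.47 for Aif1. They use the normal quantile and are narrower than the quasi-likelihood test itself would give, so they do not set firm limits on the changes.

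Markers of other cells were read in the same FC libraries. The 7 meningeal fibroblast genes summed to 42.5 to 101 CPM in wild-type and 66.2 to 118 CPM in Igf2enh-/- FC libraries, with 6 of 7 fitted values above 0 and a median of 0.39. The 9 border macrophage genes, which mark the macrophages of meninges and vessels, summed to 20.7 to 41.0 CPM and 26.2 to 40.4 CPM, and all 4 that passed the filter were above 0 (median 0.17). The 3 red blood cell genes summed to 9.74 to 15.8 CPM and 13.8 to 20.3 CPM, with all 3 above 0, each at an unadjusted p under 0.05, and a median of 0.43. All 8 oligodendrocyte genes were below 0 (median -0.18), with sums of 1590 to 2128 CPM and 1001 to 2122 CPM. Of 8 astrocyte genes 7 were above 0 (median 0.05), and of 7 endothelial genes 5 were below 0 (median -0.05). Cortical projection neuron genes had 3 above and 5 below 0 (median -0.02), and neuron genes 4 and 4 (median -0.01). Unadjusted p was also under 0.05 for 5 of the 7 meningeal fibroblast genes, beside 13.5% of all genes. The same held for 3 endothelial, 3 cortical projection neuron, 1 astrocyte and 1 neuron gene, and for 0 border macrophage and 0 oligodendrocyte genes. None of these lists held a gene that passed the test, and their part in the C1q and Aif1 values was not tested.

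In STR none of the 9 members passed the test, beside 0.036% of 13875 genes, and DESeq2 again called 0 members. P2ry12 was the only member with an unadjusted p under 0.05, at a log2 fold change of -0.18 ± 0.0625 (SE; adjusted p = 0.353), with 2 of 8 Igf2enh-/- libraries below every wild-type library. Med12l was at 0.06 (adjusted p = 0.841). The others lay between -0.06, for Trem2 and Aif1, and 0.09, for C1qb, with adjusted p from 0.768 to 0.966. The 95% intervals ran from -0.31 for P2ry12 to 0.25 for C1qb.

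Sex was a term in each regional fit. None of the members passed the test between males and females in FC, beside 0.0431% of genes, or in STR, beside 0.0432%. The widest value was that of Aif1 in both regions, 0.23 ± 0.0833 (SE; adjusted p = 0.567) for males against females in FC and -0.20 ± 0.0939 (adjusted p = 0.461) in STR. It was the only member with an unadjusted p under 0.05 in each region, and DESeq2 called 0 members in both.

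The wider microglia programme between the regions was described with fixed lists, shown in the plot of list genes between regions. For these counts the background was 34.5% of all genes higher and 33.2% lower in wild-type STR, and 34.5% each way in Igf2enh-/- STR. Of 15 further homeostatic microglia genes tested, 8 were higher and 2 lower in wild-type STR (median 0.22), and 7 and 2 in Igf2enh-/- STR (median 0.16). Cst3, the secreted protease inhibitor cystatin C, rose from 484 ± 37.7 CPM (SD, n = 6) to 642 ± 58.2 (n = 7) in wild-type mice (log2 fold change 0.41; adjusted p = 2.24e-06). Sall1, a transcription factor of microglial identity, was higher by 0.33 on the log2 scale (adjusted p = 1.5e-06). Ctsd, the lysosomal protease cathepsin D, was lower by -0.17 (adjusted p = 0.0148). Cst3, Sall1 and Ctsd are also transcribed in other brain cells.

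Of 20 myeloid lineage and signalling genes, 12 were higher and 0 lower in wild-type STR (median 0.20) and 7 and 0 in Igf2enh-/- STR (median 0.15). Ikzf1, a haematopoietic transcription factor, was higher by 1.11 on the log2 scale in wild-type mice (adjusted p = 5.4e-08). Cd68, a lysosomal glycoprotein, was higher by 0.89 (adjusted p = 2.94e-07) and Irf8, a transcription factor of myeloid cells, by 0.76 (adjusted p = 1.3e-08). These values lie well above the list median of 0.20, and which cells of the tissue carried them was not tested. Tyrobp, the adaptor of TREM2, was higher by 0.20 (adjusted p = 0.0404) in wild-type mice and was at 0.15 (adjusted p = 0.103) in Igf2enh-/- mice. Spi1, which encodes PU.1, was at 0.20 (adjusted p = 0.143) and -0.10 (adjusted p = 0.438).

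**Figure D3:**
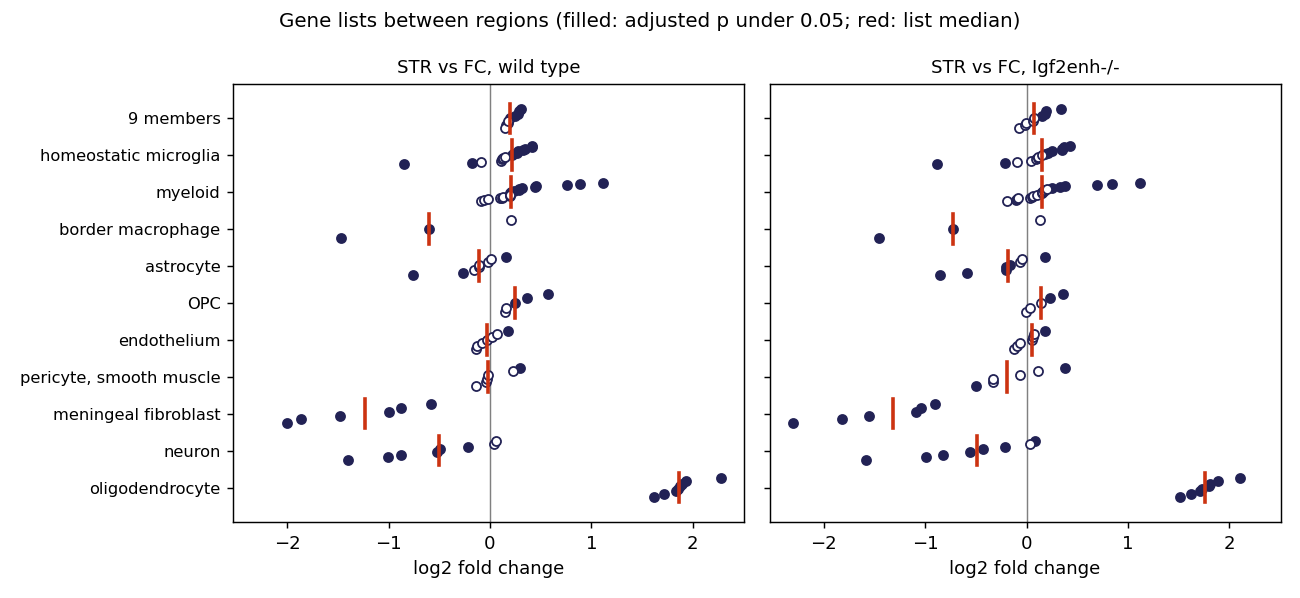
Log2 fold change of STR against FC (x axes) for the genes of 11 lists in wild-type and Igf2enh-/- mice, 1 point a gene, filled at an adjusted p under 0.05, with the list median in red. The members and the homeostatic and myeloid lists centre between 0.08 and 0.22, and oligodendrocyte precursor (OPC) genes nearby at 0.25 and 0.14. Oligodendrocyte genes centre at 1.86 and 1.76 and meningeal fibroblast genes at -1.23 and -1.32.

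Both ligands of CSF1R were lower in STR. Il34, the neuronal ligand of CSF1R, fell from 60.6 ± 2.37 CPM (SD, n = 6) to 45.4 ± 6.67 (n = 7) in wild-type mice (log2 fold change -0.41; adjusted p = 7.01e-07) and was lower by -0.45 in Igf2enh-/- mice (adjusted p = 9.05e-08). Csf1, the other ligand, was lower in STR by -0.32 (adjusted p = 0.00626) and -0.61 (adjusted p = 4.21e-06). Cx3cl1, the ligand of CX3CR1, was at 0.06 (adjusted p = 0.382) and -0.03 (adjusted p = 0.656). Entpd1, which encodes the ectonucleotidase CD39 that degrades the ADP read by P2RY12, rose from 13.5 ± 0.877 to 26.1 ± 4.90 CPM in wild-type mice (0.96; adjusted p = 1.83e-08). Of the 10 genes of this list 2 were higher and 3 lower in wild-type STR, and 1 and 2 in Igf2enh-/- STR, which is no more than the background share. The count of 2 fell to 1 without any one of libraries 2, 4, 8, 12, 14, 16, 20, 22 and 24, and the count of 1 rose to 2 without library 9 or 27.

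The other complement genes did not share one direction. Of 11 tested, 4 were higher and 4 lower in wild-type STR, and 2 and 4 in Igf2enh-/- STR, near or below the background shares, and the 4 higher fell to 2 without library 12. C4b, a component cleaved by the C1 complex, was higher by 1.37 on the log2 scale (adjusted p = 2.1e-06). Serping1, the inhibitor of the C1 proteases, was lower by -0.94 (adjusted p = 7.9e-06). Which cells carried either difference was not tested. Of 9 purinergic genes 4 were higher and 2 lower in wild-type STR, and 3 and 2 in Igf2enh-/- STR, again near the background, with 5 higher in the latter without library 13. P2ry13, a close relative of P2ry12, was at 0.15 (adjusted p = 0.128).

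Genes that microglia raise on activation were mostly below the filter. Only 7 of 20 passed the filter on low counts, and Itgax, Clec7a and Cst7, which mark the disease-associated state, reached at most 0.540, 0.281 and 0.111 CPM in any of the 27 libraries. In wild-type STR 2 of the 7 were higher and 1 lower. Lpl, a lipoprotein lipase, rose by 2.84 on the log2 scale (adjusted p = 8.93e-13) and the tetraspanin Cd9 by 0.83 (adjusted p = 9.31e-08), both with known expression outside microglia, and Cd74, the invariant chain of MHC class II, fell by 0.68 on the log2 scale (adjusted p = 0.0124). The same counts were found in Igf2enh-/- STR, where edgeR's filterByExpr gave 4 higher.

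Markers of other cells that could carry the members were also read. The 9 border macrophage genes summed to 15.6 to 20.7 CPM in STR and 20.7 to 41.0 CPM in FC libraries, and only 3 passed the filter. Of these, Mrc1 (-1.47; adjusted p = 2.55e-08) and Stab1 (-0.60; adjusted p = 5.3e-06) were lower in wild-type STR, and Cd163 was at 0.21 (adjusted p = 0.353). In Igf2enh-/- mice the same 2 were lower and Cd163 was at 0.13 (adjusted p = 0.544). None of 11 monocyte, neutrophil and lymphocyte genes passed the filter, and their sum stayed between 0.401 and 2.63 CPM. The tissue itself differed, since all 8 oligodendrocyte genes were higher in STR in each genotype, by a median of 1.86 in wild-type and 1.76 in Igf2enh-/- mice. The part of these differences in those of the members was not tested.

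None of the genes of these microglia, myeloid, complement, purinergic and ligand lists passed the test for genotype. Of 21 myeloid genes tested in STR, 19 were below 0 and 2 above (median -0.10), beside 50.2% of all genes above 0. Other lists were also one-sided in STR. All 8 oligodendrocyte genes (median -0.32) and all 5 oligodendrocyte precursor genes (median -0.13) were below 0. Above 0 were 6 of 8 astrocyte genes (median 0.05) and 8 of 9 medium spiny neuron genes (median 0.05). The part of these differences in the myeloid values was not tested. In FC 9 of 20 myeloid genes were above 0 and 11 below (median -0.01). In each region 0 myeloid genes had an unadjusted p under 0.05. In FC, 8 of 16 homeostatic genes had an unadjusted p under 0.05, beside the 13.5% of all genes, in both directions (9 above 0 and 7 below, median 0.03). Olfml3, an extracellular matrix protein carried by microglia, had the largest value, at 8.06 ± 1.48 CPM (SD, n = 6) in wild-type and 11.1 ± 1.11 (n = 6) in Igf2enh-/- FC (log2 fold change 0.47; adjusted p = 0.0815), and at 8.78 ± 1.49 (n = 7) and 12.1 ± 0.920 (n = 8) in STR (0.45; adjusted p = 0.0691). Cd33, an inhibitory sialic acid receptor, was at -0.30 (adjusted p = 0.0848) in FC.

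Within groups the members varied together. After each group's mean was removed from log2(CPM + 0.5), all 36 pairs of members had a Pearson r above 0 over the 27 libraries, from 0.09 (C1qa with Aif1) to 0.79 (C1qa with C1qb), with a median of 0.44. Members of a library share its dissection, depth and scaling, so r is a description. The 3 C1q chains formed the tightest block, with r of 0.70 to 0.79, and Csf1r went with P2ry12 (0.77) and Trem2 (0.69). Against the mean of the other 8, Csf1r had the highest r (0.79) and Aif1 the lowest (0.28). Libraries 17 and 14 had the highest member levels for their groups, with a mean deviation of 0.18 and 0.14 on the log2 scale, and library 26 the lowest (-0.18).

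**Figure D4:**
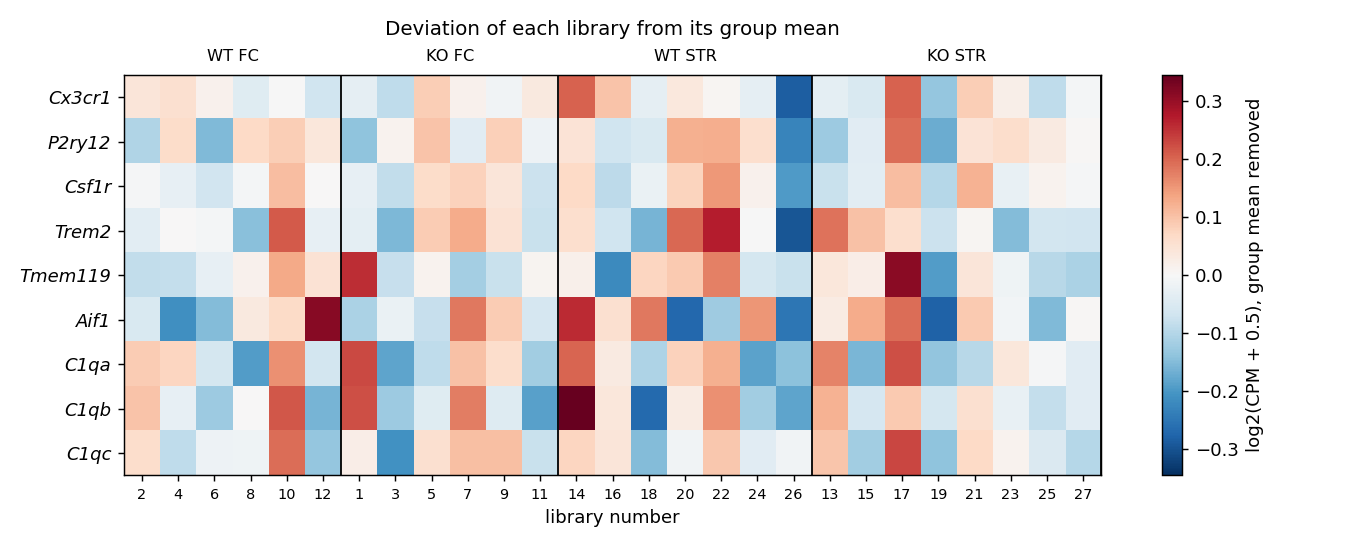
Deviation of each library (columns, grouped) from its group mean on the log2(CPM + 0.5) scale for each microglia gene (rows), red above and blue below. Library 17 is above its group mean for all 9 genes and library 26 below it for all 9.

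The spread of the members within groups was ordinary. Their within-group SD on the log2 scale ran from 0.085 for Csf1r, wider than that of 26.0% of genes, to 0.172 for Aif1, wider than that of 72.2%, against a median of 0.120 over the genes tested.

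Among 13405 other genes, the 10 most like the mean of the members over the 27 libraries had r from 0.71 to 0.78. They included Unc93b1 (0.77), 4632428N05Rik (0.75), Slco2b1 (0.74), Nudt19 (0.74), S100a16 (0.73), Laptm5 (0.72), Gamt (0.72), Ndufaf2 (0.71) and Ly86 (0.71). Unc93b1, Laptm5 and Ly86 were on the myeloid list, and the other 6 named here were on no list. By list, the mean deviation of the myeloid genes had r of 0.89 with that of the members, and the other homeostatic genes 0.84. The r was 0.58 for endothelial, 0.37 for oligodendrocyte, 0.29 for border macrophage, 0.10 for astrocyte and -0.31 for neuronal genes. Cortical projection neuron genes had r of -0.42 and medium spiny neuron genes 0.30, or -0.53 and 0.49 without libraries 15 and 20.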

How the data were processed

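The deposited tables hold raw counts per gene, which the authors made from single-end 75 bp reads by trimming with Trim Galore 0.5.0, alignment with STAR to GRCm38 and counting per gene with GENCODE annotation. Which strand was counted is not given in the sources used here. Of 52636 gene identifiers 32688 had a symbol in GENCODE vM1, and 192 of 194 list symbols were matched, 5 of them through an older symbol. The tables held 0 columns of other samples.

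Libraries were grouped by the labelled region, genotype and sex. A gene entered a fit where none of its libraries was under 1 CPM. Counts were scaled by TMM and tested with edgeR 4.0.16 (quasi-likelihood F test, Benjamini-Hochberg adjustment over all genes tested, threshold 0.05) in R 4.3.3. Genotype and sex were fitted within each region. The region comparisons and the region by genotype term were fitted over all 27 libraries with sex as a covariate. SE is that of the log2 fold change, and 95% intervals use the normal quantile, which makes them narrower than the F test would. The scripts were tested on simulated counts. Totals of 23686945 to 33926904 counts per library set the precision, and members had at least 87 counts in each library. Alternatives were the likelihood ratio test, DESeq2 1.42.0, other scalings and filters, a model without sex, fits on fewer or more libraries, and leaving out each library.

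All 9 members are named in every comparison, and list genes are named where called or among the 3 smallest p, with Spi1, Cx3cl1, P2ry13, Itgax, Clec7a and Cst7 added for their roles after their values were seen. Some genes that this rule names are not reported here. Likeness used genes with at least 1 CPM in all 27 libraries. The members and lists were chosen with earlier results of these data known. Promoters and gene positions are from RefSeq on GRCm38.p6, and gene lengths from GENCODE vM1.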

Additional observations from a re-analysis of the deposited data

Results flagged for a closer look

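Among the 36 combinations of a member and a group, 2 held a library whose gap to its nearest neighbour was large against the range of its group on the log2(CPM + 0.5) scale. Chance gives about 1 in 20 such groups. Both concern Tmem119, the membrane protein that marks microglia. In Igf2enh-/- FC, library 1 was highest at 24.8 CPM, which left a gap of 0.656 of the range below it. In Igf2enh-/- STR, library 17 was highest at 25.7 CPM, with a gap of 0.534 of the range. Library 17 was also above its group mean for all 9 members, and library 1 had the highest C1qa and C1qb of Igf2enh-/- FC, the lowest summed oligodendrocyte genes (1001 CPM) and the highest summed pericyte and smooth muscle (115 CPM) and meningeal genes (118 CPM). Without library 1 the log2 fold change of Tmem119 between genotypes in FC was 0.055 (edgeR adjusted p = 0.668). Without library 1 the log2 fold change of Tmem119 between regions in Igf2enh-/- mice was 0.049, and without library 17 it was -0.058, and neither passed the test.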

How the results depend on the processing

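The number of members called was the same in every alternative for the region comparison in Igf2enh-/- mice (4) and for genotype in STR, sex in both regions and the region by genotype term (0). For region in wild-type mice it was 7 in each alternative except total count scaling (9) and leaving out 1 library, which gave 6 to 9 calls. For genotype in FC it was 0 except with no filter on low counts, which gave 1, C1qa, beside 459 of 33060 genes. Libraries carried unique numbers and were not tied to a mouse. No paired analysis was made, and whether the same mouse gave an FC and a STR library is not known. If so, the region tests leave out that pairing.

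For region in wild-type mice, C1qb and Tmem119 passed the test under total count scaling (0.202 and 0.172, adjusted p = 0.0427 and 0.047), C1qb also without library 10, 18 or 26 (adjusted p = 0.021 to 0.0446) and Tmem119 without library 10 or 16 (0.0466 and 0.0265) and when wild-type libraries were fitted alone (0.0483). Aif1 did not pass in that fit (0.0615), nor C1qc without library 12 (0.0626). The cause of these changes was not tested.

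Log2 values that changed sign all lay near 0 and passed the test under no setting. In the region comparison of Igf2enh-/- mice, total count scaling gave 0.017 for Tmem119 and 0.014 for C1qc, and edgeR's filterByExpr gave 0.005 and 0.001. For sex in FC, no filter gave 0.002 for Tmem119 and total count scaling -0.003 for C1qb. Leaving out 1 library gave ranges of -0.058 to 0.049 for Tmem119 and -0.054 to 0.019 for C1qc in the region comparison of Igf2enh-/- mice. For genotype it gave -0.029 to 0.008 for Cx3cr1 in FC, and in STR -0.015 to 0.052 for Cx3cr1, -0.048 to 0.005 for Csf1r and -0.052 to 0.005 for C1qc. For the region by genotype term it gave -0.005 to 0.068 for Cx3cr1 and -0.016 to 0.087 for Trem2. For sex in FC it gave -0.030 to 0.063 for Tmem119, -0.063 to 0.037 for C1qa and -0.049 to 0.057 for C1qb. For sex in STR it gave -0.014 to 0.037 for P2ry12, -0.094 to 0.004 for Tmem119, -0.012 to 0.036 for Csf1r, -0.118 to 0.011 for C1qb and -0.075 to 0.008 for Trem2.

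With no filter, or with wild-type libraries fitted alone, 1 rather than 2 of the ligand and partner genes was called higher in wild-type STR, and leaving out any one of 9 libraries did the same. Of the 10 genes most like the members, 5 were also among the 10 by Spearman's rho. All-gene counts for genotype depended on the test. The quasi-likelihood test of edgeR called 53 genes in FC and 5 in STR, its likelihood ratio test 232 and 56, and DESeq2 242 and 112.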
